A study of Homo sapiens with 8 samples.

Results

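Duplicate libraries of A549 cells grown with interferon-γ (IFN-γ) were compared with duplicate libraries of untreated A549 cells, across all expressed genes. These 4 libraries are part of a set of 8, in which the other 4 came from cells given AX-0085, a kinase inhibitor, alone or after IFN-γ. They were selected by their labels, as the groups with IFN-γ and without AX-0085 and with neither. IFN-γ was added at 20 ng, as the labels give it without a volume, and RNA was taken after 2 successive periods of 24 h. Untreated cells received neither agent, and the labels name no vehicle for them. A549 is 1 established lung adenocarcinoma line with epithelial features, so all libraries share its genotype, and no other lung cell type was cultured with it.

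IFN-γ is a cytokine made mainly by T cells and natural killer cells. It binds a receptor that activates the kinases JAK1 and JAK2, and the signal then passes to the nucleus and turns on genes of antigen presentation, antiviral defense and guanylate-binding proteins. In epithelial tumor cells it is known to raise ligands of immune checkpoints and to slow growth, and cells exposed to it also adjust amino acid use, lipid synthesis and protein quality control.

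The stranded mRNA libraries held 29115901 and 24600518 counts in untreated cells and 20672828 and 25849811 counts with IFN-γ, so that 3 counts in a library corresponded to between 0.0992 and 0.158 normalized CPM (counts scaled by library size and TMM factor, the scale used throughout). Such limits cover counting error only. Of the 60664 genes in the table, 15066 passed the filter on low counts and were tested. The duplicates of a group differed by more than counting noise, the chi-square divided by its degrees of freedom being 17.9 for untreated cells and 22.3 with IFN-γ, and their log2 CPM values had a Pearson's r across genes of 0.990 and 0.981. Nothing in the labels says that duplicates came from separate cultures, so the p-values measure the spread between these libraries, which may be technical. Counts of genes that lie inside other genes are a limit of the table. Of 2101 protein-coding genes that lie wholly inside the span of another gene, 92.8% had 0 counts in all 8 libraries, against 11.2% of the other protein-coding genes. IRF1, TAP1, TAP2, SOCS1, IDO1, CXCL10, IFIT1 and ASNS were among the genes without counts, and their response cannot be read from these data.

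The labels were checked with genes known to respond to IFN-γ. GBP1, a guanylate-binding GTPase, lay at 0.132 and 0.0815 CPM in untreated cells and at 337 and 323 CPM with IFN-γ. CD274, which encodes PD-L1, went from 0.0993 and 0.204 CPM to 5.49 and 6.47 CPM, although 87.8% of its exon bases lie inside another gene. All 10 markers of lung epithelium and of this line were expressed. The leukocyte gene PTPRC had 1 count in 1 of the 4 libraries, and DCN, a gene of fibroblasts, had 2 counts in 1 library. Of 12 leukocyte markers 6 had 0 counts throughout, 4 lay under the filter and 2 were tested. The 2 tested summed to 2.88 and 3.01 CPM in untreated cells and to 1.74 and 1.81 CPM with IFN-γ. Of these 2 markers, 1 was called lower (-2.62). Among 11 markers of fibroblasts and endothelium 1, COL1A1, passed the filter, and it was called lower (-1.45). In RNA of a whole culture, fewer cells of a kind and less RNA per cell cannot be told apart.

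With IFN-γ 1547 genes were called higher, which is 10.3% of those tested, and 2590 were called lower, which is 17.2%. A call required a Benjamini-Hochberg-adjusted p under 0.05 in edgeR's quasi-likelihood test and a change of more than 2-fold. The typical size was moderate, with a median log2 fold change of 1.45 among genes called higher and of -1.66 among genes called lower, and the median over all genes tested was -0.06. Changes over 2 on the log2 scale were seen in 384 genes called higher and 897 called lower, and changes over 5 in 48 and 53. The genes called higher held 5.16% and 5.02% of all counts in the untreated libraries and 14.8% and 15.6% with IFN-γ. The genes called lower held 13.2% and 12.9% without the cytokine and 4.44% and 4.49% after it. Genes of the mitochondrial genome also took a smaller share of the counts with IFN-γ, at 1.71% and 1.82% against 3.55% and 2.72%, and the part of this difference in the other results was tested only by leaving those genes out, which gave 1595 genes higher and 2515 lower.

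**Figure D1:**
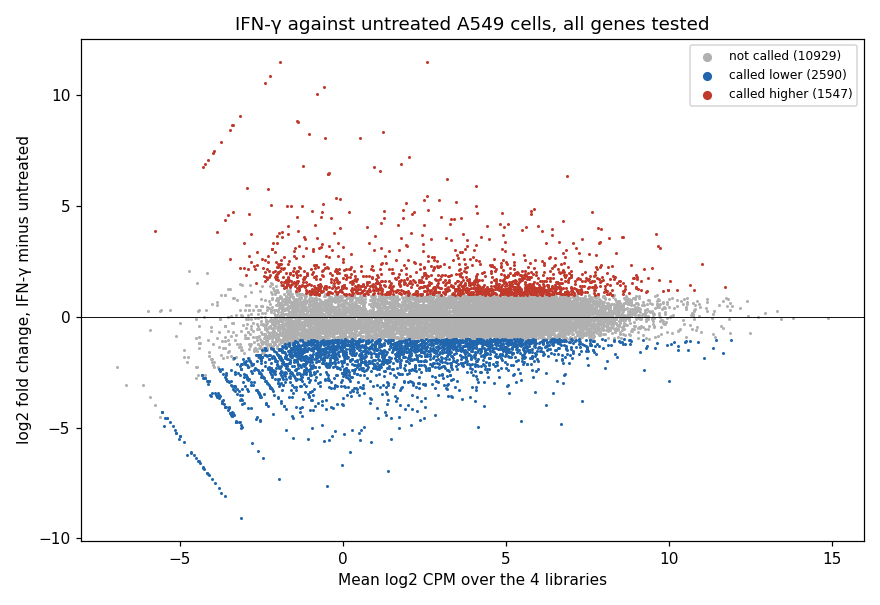
Each point is 1 of 15066 genes, with the mean log2 CPM of the 4 libraries on the x axis and the log2 fold change of IFN-γ against untreated cells on the y axis. The 1547 genes called higher (red) are spread over all levels, while many of the 2590 genes called lower (blue) lie at low levels.

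Falls were more frequent among genes of low expression. Among protein-coding genes split into 5 equal parts by their mean log2 CPM, 34.1% were called lower in the lowest part and 6.21% in the highest. The share called higher lay between 9.46% and 11.5% in all 5 parts. Of the genes called lower, 309 had at most 3 counts in both IFN-γ libraries, and 67 genes called higher had 3 counts or fewer in each untreated library. Such genes passed the filter through a group where they were expressed, so their number is partly set by the filter. By length of the gene body, 11.8% of genes in the shortest of 5 equal parts and 8.60% in the longest were called higher, and 17.9% and 15.2% were called lower. Long noncoding RNA genes were called lower in 25.7% and higher in 9.22% of 1702 cases, and their median log2 fold change was -0.35. Processed pseudogenes, whose reads can come from a parent gene, were called higher in 12.7% and lower in 4.96% of 363 cases.

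**Figure D2:**
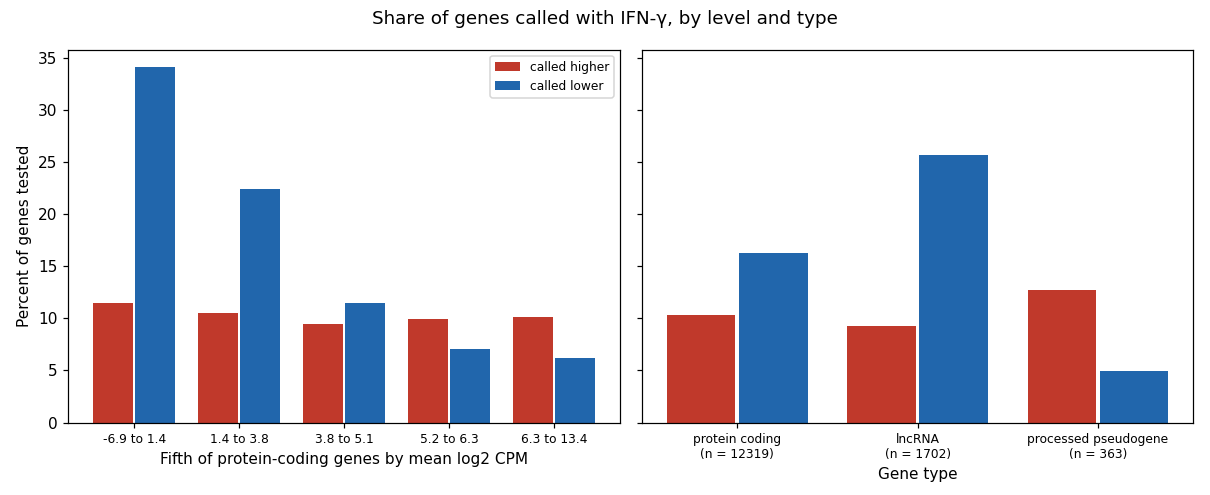
Bars give the percent of genes tested that were called higher (red) or lower (blue) with IFN-γ, in 5 equal parts of protein-coding genes by mean log2 CPM (left) and by gene type (right). The share called lower falls from 34.1% in the lowest part to 6.21% in the highest, and reaches 25.7% in long noncoding RNA genes.

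To describe pathways, 54 gene lists with 1180 different genes were drawn up, of which 992 were tested, 72 lay under the filter and 116 had 0 counts in every library. Interferon-stimulated antiviral genes had the largest median rise, at 5.01, and 14 of 17 tested were called higher. Lists with at least 10 members tested were then compared, leaving out those of antigen presentation, antiviral genes and interferon signaling. Median log2 fold changes above 1.5 were found for integrated stress response regulators, small nucleolar RNA host genes, p53 target genes and ERK-responsive genes. They were also found for NF-κB and cytokine genes and for metabolic genes tied to immune responses. Both of those lists also hold genes known to respond to interferon, among them ICAM1 and APOL1. Medians under -1.5 were found for cholesterol synthesis, regulated exocytosis and secreted coagulation proteins. The plot of list members shows that most other lists held members called in both directions. Over all genes tested 10.3% were called higher and 17.2% lower, and the counts in each list are to be read beside these shares.

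**Figure D3:**
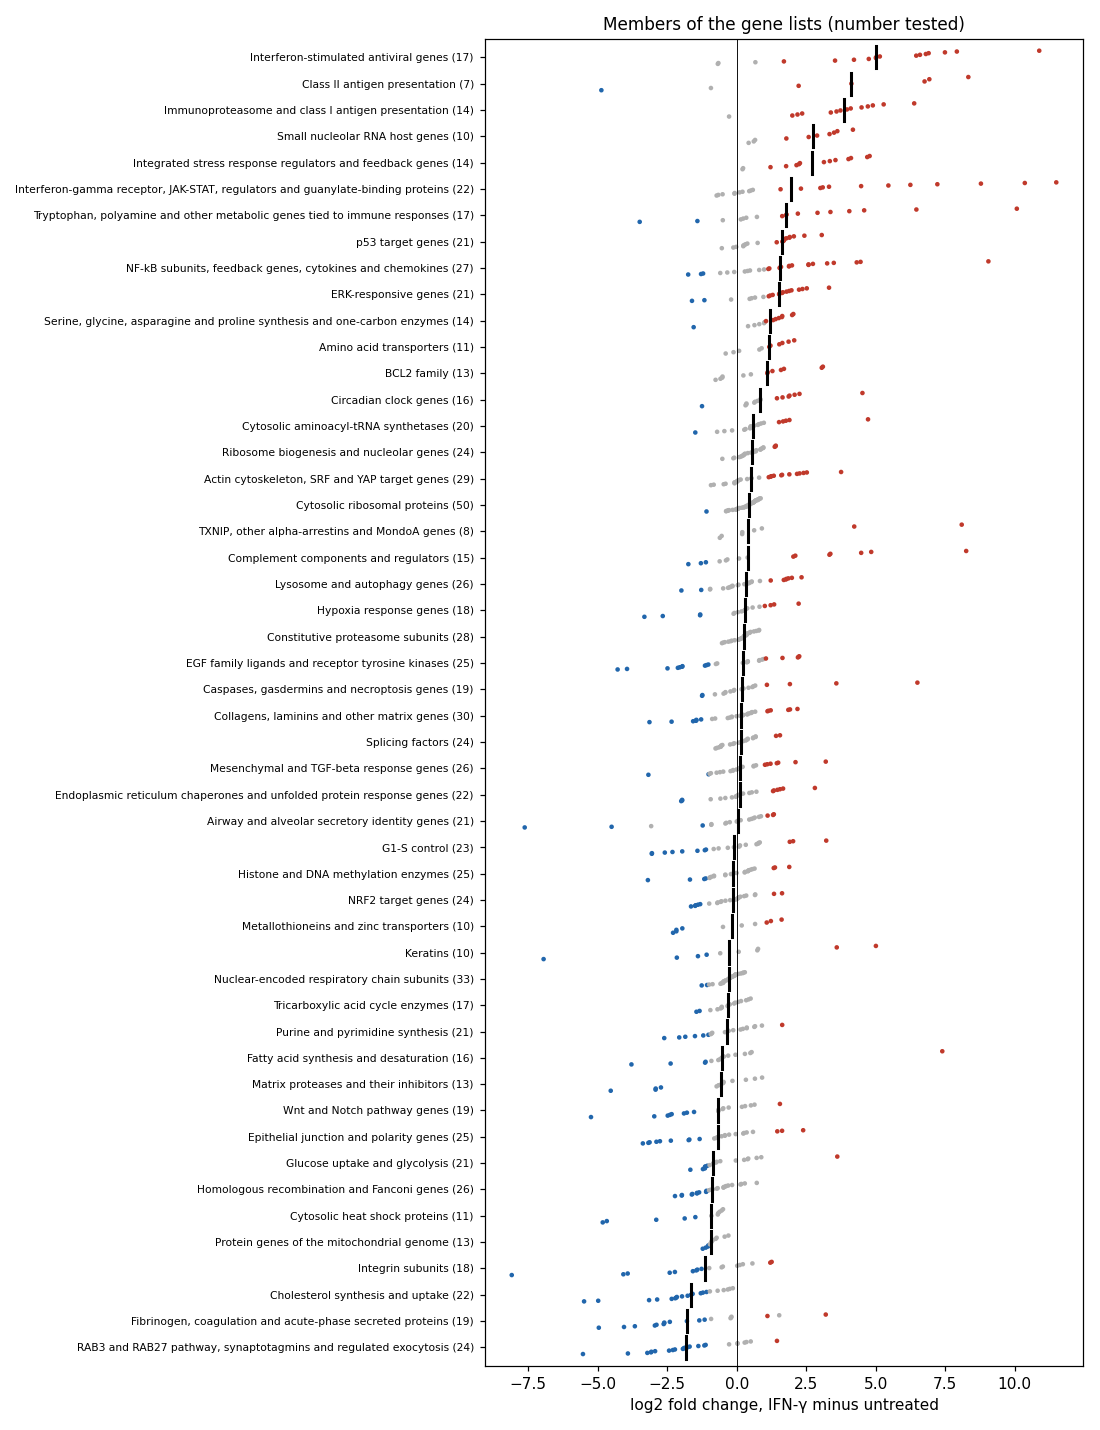
Every point is the log2 fold change (IFN-γ against untreated) of 1 list member, red where called higher, blue where called lower and grey where not called; the black bar is the median of the list, and the number of members tested is in parentheses. Medians run from 5.01 for antiviral genes to -1.82 for regulated exocytosis.

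Promoter sequences were read for the interferon genes, because the elements that bind interferon regulatory factors are short and well known. RefSeq windows of 300 bases, from 250 before to 50 after the gene start in GRCh38.p14, were at hand for 10669 of the genes tested. The ISRE-like letters GAAA, any 2 bases and GAAA, searched on both strands, were found in 46.7% of 45 interferon list members with a window, in 2.77% of all genes tested and in 3.65% of all 27305 windows. They were found in 6.41% of genes called higher and 1.71% of genes called lower. The matches below, in capitals, are those of a guanylate-binding protein gene, of the PD-L1 gene, of the light chain of MHC class I and of a ubiquitin-like antiviral modifier. They are given on the strand of the gene, and for GBP1 and CD274 the capitals are the reverse complement of the searched letters.
GBP1, chr1:89065316-89065345, minus strand: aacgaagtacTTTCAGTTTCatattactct
CD274, chr9:5450324-5450353, plus strand: gactgacatgTTTCACTTTCtgtttcattt
B2M, chr15:44711363-44711392, plus strand: gagactctaaGAAAAGGAAActgaaaacgg
ISG15, chr1:1013374-1013403, plus strand: catgcctcggGAAAGGGAAAccgaaactga

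Most genes of MHC class I presentation that were tested rose. B2M, the light chain of MHC class I, went from 217 and 211 CPM to 2946 and 2729 CPM. HLA-B, a class I heavy chain, went from 12.5 and 13.4 CPM to 1120 and 1043 CPM, a log2 fold change of 6.38 (SE 0.08, edgeR, Benjamini-Hochberg-adjusted p = 9.41e-15). HLA genes are similar to each other, and reads shared between them make the single values uncertain. Of 14 tested genes of the immunoproteasome and of class I presentation, 13 were called higher, with a median of 3.85, and TAPBP, the peptide-loading protein tapasin, was not (-0.28). The immunoproteasome subunits PSMB8, PSMB9 and PSMB10 rose by 4.10, 4.89 and 4.49. The 28 constitutive proteasome subunits tested lay between -0.53 and 0.80 and had 0 calls by edgeR, while 17 passed the adjusted p alone with a positive value and 6 with a negative one. Of 7 class II genes tested 5 were called higher and 1 lower. CD74, the invariant chain, went from 0.132 and 0.122 CPM to 44.6 and 40.8 CPM. HLA-DMB, which helps to load class II peptides, was called lower and had at most 3 counts in each IFN-γ library, at least 24.9-fold lower than untreated cells.

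The antiviral genes ISG15 and OASL rose by 5.01 and 4.75 on the log2 scale. XAF1, a proapoptotic interferon-stimulated gene, had 0 counts in untreated cells and 9.24 and 9.25 CPM with IFN-γ, a rise of at least 83.5-fold. In the list of the receptor, JAK-STAT genes, regulators and guanylate-binding proteins, 12 of 22 tested were called higher and 0 lower, with a median of 1.94. The receptor chains and kinases were not among them, with log2 fold changes of 0.10 for IFNGR1, -0.66 for IFNGR2, -0.08 for JAK1 and 0.58 for JAK2. The feedback inhibitor SOCS3 went from 38 and 44 CPM to 340 and 319 CPM. Of 19 tested genes of caspases, gasdermins and necroptosis, 4 were called higher, among them CASP4, a caspase of the noncanonical inflammasome (1.91). The 2 called lower were CASP2 (-1.24) and CASP6 (-1.25). These are 21.1% and 10.5% of the list, against 10.3% and 17.2% of all genes tested.

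Metabolic genes tied to immune responses were called higher in 10 of 17 cases, with a median of 1.77, and lower in 2. Apolipoprotein L genes were among them. APOL6 went from 12.5 and 11.4 CPM to 191 and 206 CPM, and APOL1, the trypanolytic factor of serum, went from 9.16 and 10.3 CPM to 105 and 95.7 CPM. SAT1, which acetylates polyamines for breakdown, rose from 122 and 123 CPM to 968 and 870 CPM, while ODC1 and SMOX, enzymes of polyamine synthesis and oxidation, rose by 1.77 and 1.79. NAMPT, the enzyme that starts NAD salvage, rose by 2.20. GCH1, which makes the cofactor of nitric oxide synthases, was not called (-0.50), and NOS2 had at most 3 counts in each IFN-γ library and was called lower.

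The integrated stress response is the program by which kinases that sense amino acid lack, unfolded protein or viral RNA slow translation and raise the transcription factor ATF4, which turns on amino acid synthesis and feedback genes. Of the 14 regulators and feedback genes tested out of 16, 12 were called higher and 0 lower, with a median log2 fold change of 2.7. ATF4 itself lay at 364 and 383 CPM in untreated cells and at 915 and 814 CPM with IFN-γ, and its log2 fold change was 1.21. SESN2, a leucine sensor that restrains mTORC1, went from 10.3 and 10.8 CPM to 294 and 285 CPM, a log2 fold change of 4.78 (SE 0.07, edgeR, Benjamini-Hochberg-adjusted p = 2.50e-14). ATF3, a stress-induced transcription factor, rose from 5.62 and 5.86 CPM to 151 and 146 CPM, and CHAC1, which degrades glutathione, from 4.83 and 5.5 CPM to 94.3 and 83.4 CPM. TRIB3 and PPP1R15A, which feed back on the pathway, rose by 3.55 and 3.13, and DDIT4, an inhibitor of mTORC1, by 2.15. The sensor kinases EIF2AK3 and EIF2AK4 were not called, with values of 0.23 and 0.21. In all 12 genes called, both IFN-γ libraries lay above both untreated libraries. The groups did not overlap in 81.1% of all genes tested. They did not overlap in any called gene that is named here either. Non-overlap was a condition for naming the largest rises and falls over all genes, so it adds nothing for those.

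**Figure D4:**
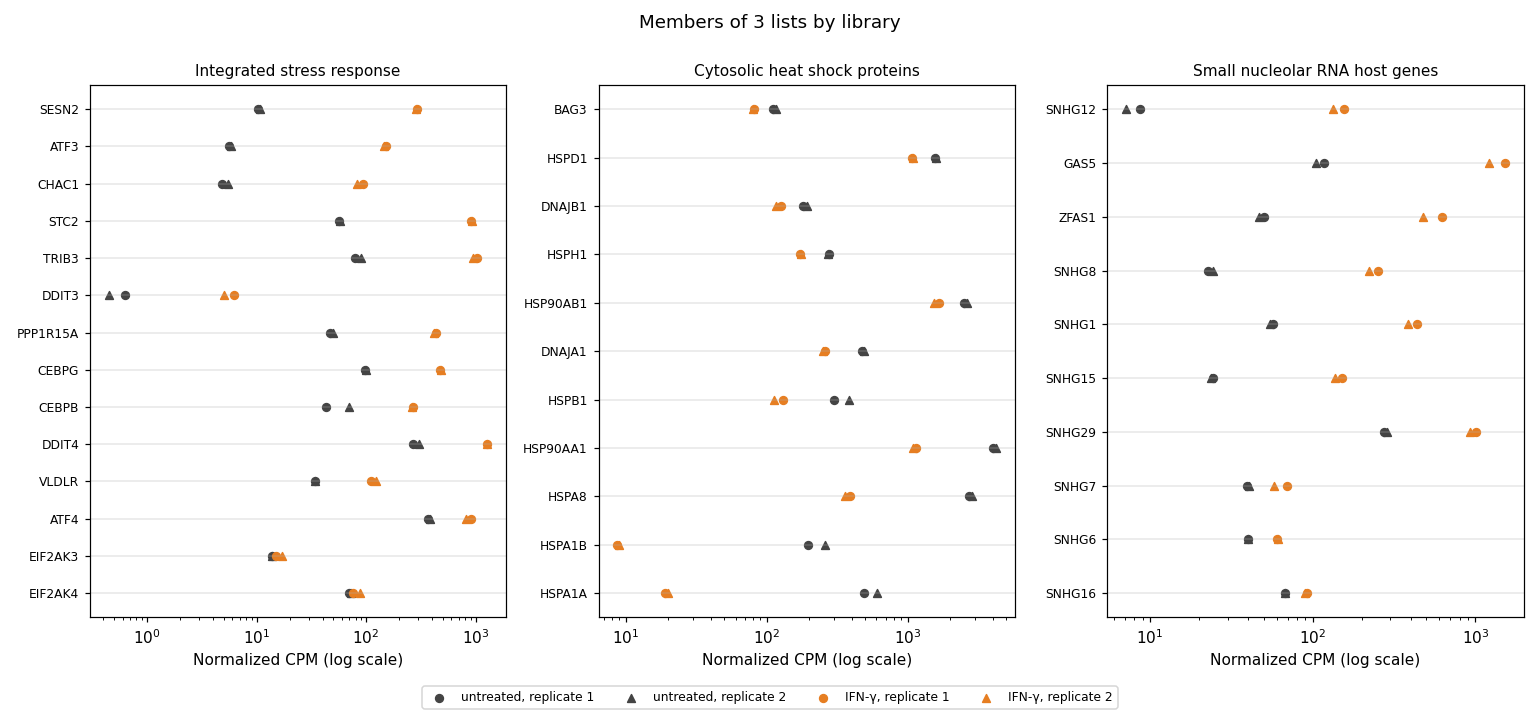
Normalized CPM on a log scale in each library is given for the tested members of 3 lists, ordered by log2 fold change, with untreated libraries in grey and IFN-γ libraries in orange (circles for replicate 1, triangles for replicate 2). Most stress response genes lie higher with IFN-γ, as do snoRNA host genes, and heat shock genes lie lower.

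Amino acid synthesis and transport genes, many of which are known ATF4 targets, were called higher in part. Enzymes of serine, glycine, asparagine and proline synthesis and of one-carbon metabolism were called higher in 8 of 14 tested, with a median of 1.18. GPT2, a mitochondrial alanine transaminase, went from 34.2 and 36.9 CPM to 147 and 144 CPM, and MTHFD2, of mitochondrial folate metabolism, from 135 and 141 CPM to 558 and 540 CPM. PHGDH and PSAT1, of serine synthesis, rose by 1.40 and 1.64. SHMT1, the cytosolic serine hydroxymethyltransferase, was called lower, from 102 and 111 CPM to 37.3 and 35.1 CPM, whereas the mitochondrial SHMT2 had a value of 0.64 and was not called. Among 11 amino acid transporters tested 6 were called higher and 0 lower, with SLC6A9, a glycine transporter, at 2.07 and SLC1A5, a glutamine transporter, at 1.86. SLC7A11, the cystine transporter, was not called (0.08).

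Of 20 cytosolic aminoacyl-tRNA synthetases, which charge tRNAs with amino acids, 5 were called higher and 1 lower, with a median of 0.57. WARS1, for tryptophan, had the largest change of them, from 37.8 and 40.5 CPM to 1027 and 1035 CPM, a log2 fold change of 4.72 (SE 0.07, edgeR, Benjamini-Hochberg-adjusted p = 2.50e-14). Those for glycine (GARS1), serine (SARS1), alanine (AARS1) and tyrosine (YARS1) rose by 1.89, 1.77, 1.66 and 1.52. QARS1, for glutamine, was called lower, from 154 and 157 CPM to 60.7 and 50.1 CPM. The synthetases were listed by their enzyme function, and which signal raised any of them, WARS1 included, was not tested. For WARS1, 52.6% of the exon bases lie inside another gene, which makes its value uncertain, and the same holds for 60.2% of ZFAS1, 80.2% of SNHG29 and 52.2% of FANCD2, which follow.

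The ATF4 letters TGATGNAA were searched in the promoter windows of these 4 lists of stress and amino acid genes. They were found in 22.2% of 27 members called higher, in 27.3% of 22 members not called higher, in 1.73% of all genes tested and in 3.67% of all windows. The 3 matches below lie upstream of the start in genes called higher, 1 each of a transcription factor, a glutathione-degrading enzyme and an aminoacyl-tRNA synthetase. The capitals mark the match, which is the reverse complement of the searched letters in CHAC1 and AARS1.
ATF3, chr1:212565206-212565233, plus strand: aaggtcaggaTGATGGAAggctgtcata
CHAC1, chr15:40953252-40953279, plus strand: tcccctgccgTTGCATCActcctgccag
AARS1, chr16:70289676-70289703, minus strand: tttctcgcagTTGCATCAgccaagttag

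Most host genes of small nucleolar RNAs that were tested rose. Their spliced transcripts are short, carry snoRNAs in their introns and are known to be degraded in a way that depends on translation. Of 10 tested out of 13, 7 were called higher and 0 lower, with a median of 2.74. None of the 10 remained in the fit limited to genes with no exon base inside another gene. GAS5 went from 117 and 104 CPM to 1509 and 1213 CPM, a log2 fold change of 3.62 (SE 0.12, edgeR, Benjamini-Hochberg-adjusted p = 2.17e-11). SNHG12 rose from 8.67 and 7.13 CPM to 155 and 132 CPM, and ZFAS1 from 50.4 and 46.5 CPM to 622 and 475 CPM. These were also the largest rises among long noncoding RNA genes chosen by level. SNHG6, SNHG7 and SNHG16 were not called, at 0.61, 0.66 and 0.43. The largest falls among long noncoding RNA genes of that level were LCIIAR, from 30.1 and 32.5 CPM to 4.23 and 4.14 CPM, LINC00205 (-2.38) and SUCLG2-DT (-2.21).

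Heat shock proteins, chaperones that fold proteins and are raised by heat shock factor 1, moved in the opposite direction. The list is mostly of cytosolic members, but it also holds the mitochondrial chaperonins HSPD1 and HSPE1 and the co-chaperone BAG3. All 11 tested had lower values with IFN-γ, 5 were called lower and 0 higher, and the median was -0.92. HSPA1A went from 490 and 610 CPM to 19.0 and 19.8 CPM, a log2 fold change of -4.82 (SE 0.10, edgeR, Benjamini-Hochberg-adjusted p = 7.61e-13). Its near-identical neighbour HSPA1B had a value of -4.68, and reads of the 2 genes may be split between them, so each value is uncertain. HSPA8, the constitutive member of the family, fell from 2710 and 2874 CPM to 389 and 361 CPM, HSP90AA1 fell from 4006 and 4227 CPM to 1148 and 1096 CPM, and HSPB1 fell by 1.49 on the log2 scale. DNAJB1, HSPH1 and HSP90AB1 were not called (-0.62, -0.67 and -0.68). HSPA2, a relative that was not on the list, fell from 79.4 and 84.5 CPM to 4.65 and 5.35 CPM.

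Chaperones and stress genes of the endoplasmic reticulum were split, with 6 of 22 called higher and 3 lower and a median of 0.10. The sensors and transcription factors ERN1, ATF6 and XBP1 rose by 2.81, 1.55 and 1.30, and the chaperone HSPA5 rose from 941 and 993 CPM to 2746 and 2581 CPM. CALR, a calcium-binding chaperone of glycoproteins, fell from 538 and 560 CPM to 139 and 136 CPM, and SDF2L1 and CRELD2 were called lower, both at -1.97. PDIA3, P4HB and HSP90B1 had values between -0.17 and 0.06 and were not called.

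Cholesterol synthesis and uptake genes, which are driven by the transcription factor SREBP2 when sterols are low, were called lower or not called. All 22 tested had negative values, 16 were called lower and 0 higher, and the median was -1.64. INSIG1, a sterol-regulated brake on SREBP, went from 48.8 and 53.7 CPM to 5.49 and 5.95 CPM, and its log2 fold change was -3.16 (SE 0.10, edgeR, Benjamini-Hochberg-adjusted p = 1.34e-11). DHCR7, which makes cholesterol in the last step of one branch, fell from 119 and 119 CPM to 15.5 and 17 CPM. HMGCS1, of the early pathway, fell from 124 and 126 CPM to 30.8 and 33 CPM, and FDFT1, squalene synthase, from 144 and 154 CPM to 50.2 and 45.7 CPM. LSS, which closes the sterol rings, was called lower (-2.16), as was SREBF2, the gene of SREBP2 itself (-1.22). SQLE, NSDHL and SC5D were not called, at -0.47, -0.25 and -0.32. Genes with any exon base inside the span of another gene were then left out. Of the cholesterol genes 10 remained in the test and 5 of them were called lower.

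Fatty acid desaturases fell with them. FADS2 went from 618 and 584 CPM to 44 and 42.9 CPM and SCD from 1398 and 1338 CPM to 258 and 267 CPM. The list of fatty acid synthesis had 4 genes called lower and 1 higher of 16, with a median of -0.54, and FASN and ACLY were not called (-0.66 and -0.91). The gene called higher was ACSL5, an acyl-CoA synthetase with 0 counts in both untreated libraries, at least 7.34-fold higher with IFN-γ.

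Glucose uptake and glycolysis genes had a median of -0.85, with 7 of 21 called lower and 1 higher. PFKFB3, which makes an activator of phosphofructokinase, fell from 558 and 601 CPM to 177 and 187 CPM, and LDHA from 2787 and 2855 CPM to 1303 and 1241 CPM. GAPDH fell by 1.06, and without IFN-γ replicate 2 its value was -0.95, below the limit for a call. HK2, a hexokinase, moved the other way, from 5.03 and 5.91 CPM to 62.8 and 70.4 CPM, a log2 fold change of 3.62 (SE 0.12, edgeR, Benjamini-Hochberg-adjusted p = 2.67e-11). The glucose transporter SLC2A1 was not called (0.88). TXNIP, which restrains glucose uptake, had 1 and 4 counts in untreated cells against 24.5 and 27.9 CPM with IFN-γ, and the related ARRDC4 rose from 0.331 and 0.774 CPM to 9.03 and 10.9 CPM. The other 6 tested genes of this family and its regulators were not called.

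All 13 protein genes of the mitochondrial genome had negative values, with a median of -0.92, and 4 were called lower. MT-CO3, a subunit of cytochrome oxidase, lay at 4410 and 3509 CPM in untreated cells and 2038 and 1854 CPM with IFN-γ. The count rests on single libraries, since it was 1 without untreated replicate 1, 8 without untreated replicate 2, and 2 without replicate 1 of IFN-γ with AX-0085. Of 33 nuclear genes of the respiratory chain tested 2 were called lower and 0 higher, with a median of -0.29. That is 6.06% called lower, against 17.2% of all genes tested. ATP5MC3, of ATP synthase, fell by 1.26 and COX6B1 by 1.07, and COX6B1 was at -0.86 without IFN-γ replicate 2. In the tricarboxylic acid cycle IDH2 and PC, which makes oxaloacetate, fell by 1.45 and 1.34, and the other 15 tested were not called. The share called lower was 11.8%, also under the 17.2% of all genes tested.

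A549 cells carry a KEAP1 mutation and have high levels of NRF2 target genes. Of 24 such genes tested 5 were called lower and 2 higher. These are 20.8% and 8.33% of the list, near the 17.2% and 10.3% of all genes tested. AKR1B10, an aldo-keto reductase, went from 5655 and 5670 CPM to 1844 and 1773 CPM. TKT of the pentose phosphate pathway was called lower (-1.5). TXNRD1, thioredoxin reductase, rose from 2102 and 2144 CPM to 5194 and 5547 CPM, while NQO1, GCLM and GCLC had values of -0.58, 0.34 and -0.24 and were not called. The median of the list was -0.15, and it was 0.01 with only genes that have no exon base inside another gene.

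Genes for ribosomal proteins were rarely called. Among 50 cytosolic ribosomal protein genes 40 had positive values, with a median of 0.45, and 1, RPL7A, was called lower (-1.09, and -0.97 without IFN-γ replicate 2). By the adjusted p alone, 35 passed with a positive value and 4 with a negative one. Among 24 ribosome biogenesis genes, RRP12 (1.40) and DKC1 (1.39), a pseudouridine synthase, were called higher. In all, 3 were called higher, which is 12.5%, against 10.3% of all genes tested. Without untreated replicate 1 there were 5. Splicing factors were not called apart from the kinases CLK1 (1.55) and CLK4 (1.41), with a list median of 0.16.

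Target genes of p53, which is wild type in A549, were called higher in 12 of 21 tested and lower in 0, with a median of 1.64. PMAIP1, a proapoptotic BH3-only protein, went from 11.4 and 9.16 CPM to 79.4 and 92.5 CPM. GDF15, a stress cytokine, rose from 27.3 and 34.5 CPM to 174 and 159 CPM, a log2 fold change of 2.43 (SE 0.11, edgeR, Benjamini-Hochberg-adjusted p = 7.13e-10). CDKN1A, the cell cycle inhibitor p21, rose by 1.91, MDM2 by 2.05 and the death receptor gene TNFRSF10B by 1.69. CCNG1, DDB2, ZMAT3, BAX, XPC and RRM2B, which are also known targets, were not called, at values between -0.54 and 0.28. GADD45A, of growth arrest and outside the list, rose from 9.76 and 12.3 CPM to 262 and 281 CPM. Several of these genes are also known to respond to ATF4 or ATF3, among them PMAIP1, GDF15, TNFRSF10B and GADD45A.

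The BCL2 family was called higher in 7 of 13 tested and lower in 0. The rises included the proapoptotic PMAIP1, BBC3 (1.70) and HRK (3.10) and the antiapoptotic MCL1 (1.28), BCL2A1 (1.59) and BCL2 (1.11). BAX and BCL2L1 were not called, at 0.24 and 0.51.

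Of 23 tested genes of G1-S control 8 were called lower and 3 higher, with a median of -0.10. CCND3, a D cyclin, went from 262 and 295 CPM to 49.3 and 43.5 CPM, and CDKN2C, a CDK inhibitor, from 23.6 and 26.1 CPM to 3.01 and 2.97 CPM. E2F1 and CCNE2 fell by 2.31 and 3.06. The 3 called higher were MYC, from 84.3 and 87.4 CPM to 356 and 344 CPM, MXD1, a MYC antagonist, from 4.60 and 4.68 CPM to 42.2 and 44.1 CPM, and CDKN1A. CCND1, CDK4 and RB1 had values between 0.08 and 0.12 and were not called.

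Genes of homologous recombination and the Fanconi pathway were called lower in 11 of 26 tested and higher in 0, with a median of -0.90. FANCD2 went from 42.8 and 39.7 CPM to 8.45 and 9.17 CPM, and RAD54L from 9.79 and 10.1 CPM to 2.48 and 2.53 CPM. BRCA1 fell by 1.10, while BRCA2 (0.13) and PALB2 (0.72) were not called. In nucleotide synthesis 6 of 21 were called lower. They included the S-phase enzymes TK1, RRM1, RRM2 and TYMS, and PAICS of purine synthesis. TK1 fell from 256 and 294 CPM to 49.3 and 41.0 CPM. CTPS1, which makes CTP, was called higher, from 196 and 205 CPM to 647 and 599 CPM.

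ERK-responsive genes, which include feedback phosphatases, Sprouty proteins and AP-1 subunits, were called higher in 14 of 21 tested and lower in 2, with a median of 1.52. FOSL1 went from 41.7 and 42.7 CPM to 439 and 402 CPM, a log2 fold change of 3.32 (SE 0.07, edgeR, Benjamini-Hochberg-adjusted p = 6.19e-13), and JUN from 26.4 and 31.9 CPM to 166 and 167 CPM. The phosphatases DUSP6 and DUSP5 rose by 2.36 and 2.24, and SPRY4 by 1.52. FOS was called lower, from 7.84 and 7.13 CPM to 2.85 and 2.13 CPM. DUSP4, SPRED1 and HMGA2 were not called, at 0.53, -0.20 and 0.66.

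Among ligands of the EGF family and receptor tyrosine kinases the 5 called higher were all ligands. EREG, an EGF receptor ligand, rose from 134 and 124 CPM to 548.9 and 672 CPM, and VEGFA from 37.3 and 41.6 CPM to 183 and 185 CPM. HBEGF, BTC and NRG1 rose by 2.20, 1.64 and 1.05. Of the receptors FGFR1 fell from 203 and 210 CPM to 50.3 and 55.9 CPM and FGFR4 from 48.6 and 54.5 CPM to 8.98 and 9.29 CPM, and ERBB2 and ERBB3 were called lower (-1.02 and -1.97). EGFR, MET and AXL were not called, at 0.96, 0.36 and 0.80. Of 25 tested 10 were called lower, which included the ligand EGF.

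NF-κB subunits, feedback genes, cytokines and chemokines were called higher in 16 of 27 tested and lower in 3, with a median of 1.54. IL11, a cytokine of the IL-6 family, went from 23.9 and 24.2 CPM to 477 and 480 CPM, a log2 fold change of 4.31 (SE 0.06, edgeR, Benjamini-Hochberg-adjusted p = 2.50e-14). The neutrophil chemokine CXCL2 rose from 4.70 and 3.58 CPM to 46.5 and 47.5 CPM, and LIF and CXCL5 rose by 1.54 and 1.56. RELB and NFKB2, of the noncanonical pathway, rose by 1.59 and 1.88. CCL2, a monocyte chemokine, was called lower, from 5.56 and 6.15 CPM to 1.74 and 1.73 CPM, as were NFKBIZ (-1.29) and TNFAIP2 (-1.21). NFKBIA and CXCL1 were not called, at 0.29 and -0.60. Several of these genes had few counts, and 10 were called higher where 10 counts were required in every library.

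Complement genes were called higher in 7 of 15 tested and lower in 3. The proteases C1S and C1R rose by 3.33 and 3.37, with C1S going from 71.1 and 75.9 CPM to 770 and 711 CPM. SERPING1, the inhibitor of these proteases, had at most 3 counts in each untreated library and 13.4 and 11.9 CPM with IFN-γ, at least 114-fold higher. C3 rose from 54.9 and 53.4 CPM to 222 and 222 CPM. C5, of the terminal pathway, fell from 88.1 and 79.7 CPM to 24.1 and 26 CPM, and CFD and CLU fell by 1.29 and 1.11. C4A and C4B rose by 4.47 and 4.84, but they are near-identical copies and their values are uncertain.

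Fibrinogen, coagulation and acute-phase genes, which A549 cells share with hepatocytes, were called lower in 12 of 19 tested and higher in 2, with a median of -1.79. FGB went from 21.8 and 20.3 CPM to 2.48 and 1.00 CPM and FGG from 11.9 and 10.3 CPM to 1.53 and 1.37 CPM, and FGA fell by 2.61. APOH fell from 8.50 and 8.92 CPM to 0.317 and 0.241 CPM. PLAUR, the urokinase receptor, went the other way, from 26.7 and 24 CPM to 58.4 and 50.8 CPM.

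Genes of the RAB3 and RAB27 pathway, synaptotagmins and regulated exocytosis were called lower in 17 of 24 tested and higher in 1, with a median of -1.82. SYT12 went from 12.1 and 13.6 CPM to 1.58 and 1.45 CPM, a log2 fold change of -3.09 (SE 0.17, edgeR, Benjamini-Hochberg-adjusted p = 4.07e-09). SCAMP5 fell from 22.3 and 21.8 CPM to 6.28 and 5.31 CPM, and CPLX2, a complexin that clamps vesicle fusion, from 1259 and 1212 CPM to 509 and 439 CPM. STX1A, a syntaxin of the fusion machinery, was called higher (1.45). RAB27A, RAB27B and RAB3B were not called, at 0.35, 0.02 and 0.03. Airway and alveolar secretory identity genes had 3 members called in each direction of 21, with a median of 0.04. That is 14.3% each, against 10.3% called higher and 17.2% called lower over all genes tested. AGR2, a disulfide isomerase of mucus secretion, fell from 235 and 227 CPM to 110 and 88.6 CPM, and FOXA1 and MUC5AC were not called (-0.25 and 0.14).

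Of 25 junction and polarity genes tested 9 were called lower and 3 higher, with a median of -0.67. JUP, plakoglobin of desmosomes and adherens junctions, went from 188 and 192 CPM to 19.1 and 17.5 CPM, a log2 fold change of -3.38 (SE 0.07, edgeR, Benjamini-Hochberg-adjusted p = 5.07e-13). CDH1, E-cadherin, fell from 36.2 and 35.8 CPM to 10.7 and 10.9 CPM, and LLGL2, a polarity protein, from 50.4 and 53.4 CPM to 8.82 and 11 CPM. The tight junction genes OCLN and CLDN1 rose by 1.63 and 1.46. Of 10 keratins tested 4 were called lower and 2 higher, with a median of -0.26. Those called lower included KRT8, KRT18 and KRT19 (-1.40, -1.09 and -2.16), and those called higher were KRT16 and KRT17, with 3 counts or fewer in each untreated library and at least 8.53-fold and 17.5-fold higher. KRT18 was at -0.97 without IFN-γ replicate 2, and KRT7 was not called (0.74). Of the 10 markers of lung epithelium and of the line 6 were called lower and 0 higher, with a median of -1.24, and ALDH1A1 and AKR1C1 were not called (0.17 and -0.05).

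Of 26 mesenchymal and TGF-β response genes tested 7 were called higher and 2 lower, with a median of 0.12. ZEB2 and ZEB1, which repress epithelial genes, rose by 2.11 and 1.49, with ZEB2 going from 5.82 and 5.5 CPM to 21.6 and 27.3 CPM. VIM, CDH2, FN1 and SNAI1 were not called, at 0.13, 0.60, -0.61 and 0.11. BAMBI, a decoy receptor for TGF-β, was called lower at -1.01, and it was at -0.91 without untreated replicate 1 and -0.96 without IFN-γ replicate 1.

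Integrin subunits were called lower in 9 of 18 tested and higher in 2, with a median of -1.13, though most of those called lower had few counts and 3 were called where 10 counts were required in every library. ITGB5 fell from 453 and 467 CPM to 196 and 186 CPM, and ITGA2, of a collagen receptor, rose from 43.1 and 33.6 CPM to 74.9 and 102 CPM. Of 30 collagen, laminin and matrix genes 6 were called higher and 7 lower. NID2, which links laminins and collagens in basement membrane, rose from 5.13 and 5.05 CPM to 18.7 and 19.6 CPM, and FBLN1 fell from 57.9 and 65.3 CPM to 21.4 and 20.1 CPM. Among matrix proteases MMP7 and MMP15 both fell by 2.92, and of 13 tested 4 were called lower and 0 higher. The highest value was 0.91, for ADAM17, which passed the test but not the fold limit. Cytoskeletal, SRF and YAP target genes were called higher in 12 of 29 and lower in 0, with a median of 0.52. CCN1 rose from 64.1 and 69.4 CPM to 395 and 370 CPM, while ACTB, ACTG1, VCL and YAP1 had values between -0.08 and 0.05.

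Circadian clock genes were called higher in 7 of 16 tested, with a median of 0.85, and lower in 1. The repressors PER1 and NR1D2 went from 12.9 and 13.6 CPM to 64.7 and 62.2 CPM and from 24.1 and 19.6 CPM to 85.1 and 100.1 CPM. CLOCK and BMAL1, the activators, were not called (0.31 and 0.34), and DBP was called lower (-1.25). Lysosome and autophagy genes were called higher in 7 of 26 and lower in 2. The autophagosome genes MAP1LC3B and GABARAPL1 rose by 1.98 and 2.33, and the lysosomal cathepsin gene CTSH and the sterol carrier NPC2 fell by 1.99 and 1.28.

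Zinc genes had 3 members called higher and 4 lower of 10. SLC39A14, a zinc importer, rose from 212 and 206 CPM to 606 and 673 CPM, and SLC39A10 fell from 81.3 and 72.3 CPM to 14.5 and 19.3 CPM. In the hypoxia list 4 of 18 were called in each direction. EGLN3, an oxygen sensor, fell by 2.66 and KDM3A rose by 1.34. Histone and DNA methylation enzymes had 3 called higher (12%) and 4 lower (16%) of 25, near the shares over all genes tested (10.3% and 17.2%). KDM6B and KDM5B, histone demethylases, rose by 1.89 and 1.37, and HELLS, a chromatin remodeler, fell by 1.17. Wnt and Notch genes were called lower in 8 of 19 and higher in 1. DKK1, a secreted Wnt inhibitor, went from 318 and 282 CPM to 38.1 and 38.6 CPM and NOTCH3 from 130 and 129 CPM to 23.4 and 25.4 CPM, whereas the ligand JAG1 rose from 227 and 226 CPM to 616 and 713 CPM.

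Outside the interferon lists, and for protein-coding genes whose mean log2 CPM was 3 or more, the 12 strongest rises ranged from 4.07 to 5.93. The largest was that of NIBAN1, a stress-induced gene, from 2.45 and 1.91 CPM to 127 and 143 CPM (edgeR, Benjamini-Hochberg-adjusted p = 7.00e-13). IL18BP, which neutralizes IL-18, rose from 1.75 and 1.91 CPM to 69.8 and 62.0 CPM, and IL15RA, which presents IL-15, from 2.12 and 2.48 CPM to 51.6 and 47.5 CPM. TYMP, thymidine phosphorylase, rose by 4.22, RAB39B, a small GTPase, by 4.43, and S100P, a calcium-binding protein, by 4.07. The other 6 were SESN2, WARS1, ATF3, GADD45A, IL11 and CHAC1, given above. The interferon lists do not hold every gene known to respond to interferon, so these 12 may include such genes.

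The strongest falls under the same rule lay at or below -3.56. S100A4, a calcium-binding protein linked to cell motility, went from 293 and 308 CPM to 21.5 and 17.0 CPM (edgeR, Benjamini-Hochberg-adjusted p = 1.89e-11). GM2A, the lysosomal activator of GM2 ganglioside breakdown, fell from 42.7 and 47.7 CPM to 3.70 and 3.26 CPM, and CYP2S1, a cytochrome P450, from 53.4 and 52.2 CPM to 4.33 and 4.22 CPM. UPK1B, a uroplakin, fell by 3.58, and OLFML2A, TCF19 and VWA1 fell as well (-3.81, -3.61 and -3.56). Among the others were HSPA1A, HSPA1B, HSPA2 and FADS2.

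To compare genes with each other, counts were put on a scale per length (TPM, which sums to the same total in each library, over exon bases outside other genes). On this scale the largest gain was that of B2M, from 231 ± 10.3 to 2941 ± 14.4 TPM (SD, n = 2). TXNRD1, DDIT4, HLA-B, SNHG29 and HLA-C were also among the 8 largest, and DDIT4 went from 455 ± 25.8 to 1942 ± 133 TPM (SD, n = 2). The largest losses were those of MT-CO3, from 17047 ± 3178 to 8038 ± 63.5 TPM (SD, n = 2), and AKR1B10, from 10743 ± 257 to 3302 ± 104 TPM (SD, n = 2). MT-ATP6, GAPDH, HSP90AA1, RPL7A, HSPA8 and KRT18 came next, and GAPDH went from 9763 ± 30.2 to 4491 ± 52.3 TPM (SD, n = 2). Without untreated replicate 1 the falls of some of these missed the 2-fold limit, with MT-CO3 at -0.81 and MT-ATP6 at -0.89 on the log2 scale.

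The IFN-γ change could be set against the change with IFN-γ in cells that also received 0.5 μM AX-0085 for the last 24 h, which uses other libraries. By the interaction test the IFN-γ change differed with AX-0085 in 2800 genes, which is 18.6% of those tested. Of 51 lists with at least 5 members tested, 46 had a median nearer to 0 with AX-0085 and 5 did not. It was nearer to 0 for stress response regulators (0.97 against 2.7), snoRNA host genes (0.56 against 2.74) and p53 targets (0.32 against 1.64). The fall of cholesterol genes was smaller as well, at -0.46 against -1.64, and the interaction was called for 12 of 22 members. For heat shock proteins the medians were -0.68 and -0.92, and 4 of 11 members had a called interaction. The median of glycolysis genes was 0.00 with AX-0085, against -0.85.

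**Figure D5:**
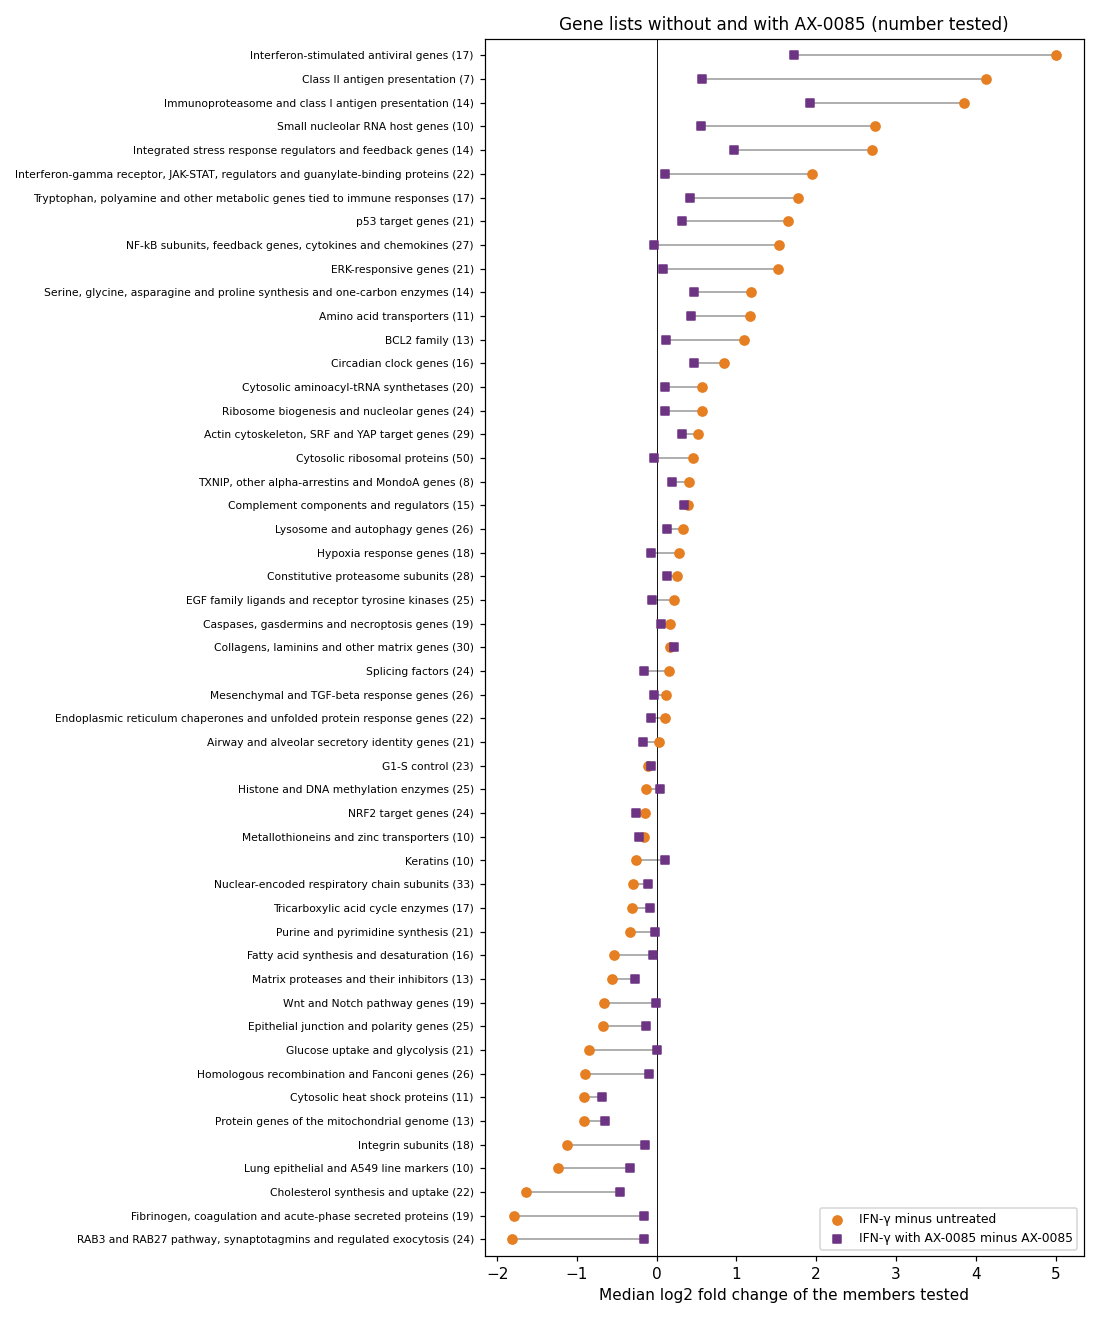
The median log2 fold change of the tested members of all 51 lists with at least 5 members tested is given for IFN-γ against untreated cells (orange circles) and for IFN-γ with AX-0085 against AX-0085 alone (purple squares), joined by a line. Squares lie nearer to 0 than circles in 46 lists and not in 5, among them NRF2 target genes (-0.26 against -0.15) and collagens and laminins (0.22 against 0.17).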

How the data were processed

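RNA-seq gene counts of 8 A549 libraries were used. They were deposited by the authors as whole-number counts per gene, without normalization. According to the submitters' processing notes and the methods, reads were made with bcl2fastq 2.20, trimmed with Trim Galore 0.6.7, aligned with STAR 2.7.9a and counted with featureCounts of Rsubread 2.6.4. The annotation release and the strand setting are not given in the sources used here. Gene names, types and spans were matched to GENCODE annotation of GRCh38. Genes inside other genes are largely at 0 counts, and genes with near-identical copies may have lost or split reads.

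The 4 groups of 2 libraries were fitted together with edgeR 4.0.16 in R 4.3.3 (filterByExpr, TMM normalization, quasi-likelihood test). A gene was called where the Benjamini-Hochberg-adjusted p over all 15066 genes tested was under 0.05 and the fold change over 2. CPM values are TMM-normalized. The interaction was the IFN-γ change with AX-0085 minus that without it. The biological coefficient of variation was 0.0609. On simulated counts of 14582 genes with 200 changed, the same script recovered 98% of the genes changed 1.5 on the log2 scale. It recovered 100% of those changed 2, with 2 false calls. The simulation gave all genes the same dispersion, changed no gene of low expression and held as many rises as falls. It checks the script only, and its rates do not carry over to the calls made here. DESeq2 1.42.0, other normalizations, filters and thresholds, leaving out each library, a replicate block, and genes with no exon base inside another gene were alternatives. Same-numbered untreated and IFN-γ libraries deviated from their group means in opposite directions (correlation -0.356), as did those of untreated cells and AX-0085 (-0.322). Those of IFN-γ and AX-0085 deviated together (0.346), and the other pairs of groups lay between -0.120 and 0.079. The numbers were therefore not taken as pairs, and a structure shared under another numbering may remain.

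Groups came from the sample labels. The gene lists and the members described were chosen with earlier results of these data known, and no test was made over a list. Genes were named by a rule. It took genes known to respond, among them CD274 and GBP1, as checks. It took the 12 largest rises and falls among protein-coding genes outside the interferon lists, and 3 of each among long noncoding RNA genes. Both of these needed a mean log2 CPM of 3 or more and no overlap of the CPM between groups. The rule also took the 2 largest rises and falls of each list whose mean log2 CPM was 2 or more. Members called against the list's direction and the 8 largest gains and losses per length completed it. Some genes that the rule names are not reported here. Other list members given as examples were chosen after their values were seen. Promoter windows are from RefSeq (GRCh38.p14).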

Additional observations from a re-analysis of the deposited data

Results flagged for a closer look

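The change with IFN-γ differed between cells without and with AX-0085 by the edgeR interaction test, where a positive value means a higher change with AX-0085. The interaction was called positive in 1826 genes and negative in 974, together 18.6% of those tested. Among lists that rose with IFN-γ, it was negative in 11 of 14 integrated stress response regulators, 8 of 10 snoRNA host genes and 11 of 21 ERK-responsive genes. Among lists that fell, it was positive in 12 of 22 cholesterol genes and 15 of 24 genes of regulated exocytosis. Only lists with a high share of such members are given, so these counts were picked by their own values. The interaction also contains the IFN-γ change without AX-0085, by which the lists were said to rise or fall. It was positive in 5 of the 10 markers of lung epithelium and of the line.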

How the results depend on the processing

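Depth limits genes of few counts. With 10 counts required in every library, 1716 genes were called lower in place of 2590, and 10 NF-κB and cytokine genes were called higher and 3 integrins lower. With the adjusted p alone, 4838 genes were higher and 5421 lower, the interaction was called in 4025 and 3552, and 13 amino acid synthesis genes were higher. Tested against a 2-fold change, 965 were higher and 1483 lower, with 748 and 372 for the interaction. A further setting kept genes with no exon base inside the span of another gene, so fewer genes, 6877, were tested by construction. Of these 767 were higher and 1235 lower, with 879 and 488 for the interaction. None of the snoRNA host genes tested remained there, so that list could not be checked. Calls then were 3 of 5 amino acid transporters still tested, 5 of 12 p53 targets, 5 of 10 cholesterol genes, 10 of 16 NF-κB genes, 3 of 4 integrins, 8 of 11 ERK-responsive genes, 8 of 11 exocytosis genes, 6 of 7 metabolic genes of immune responses and 2 of 3 markers of the line. Library size alone gave 1288 higher and 2945 lower, with the median of all genes at -0.18 in place of -0.06. DESeq2 gave 1520 and 2188. Without single libraries, 1542 to 1677 genes were higher and 2293 to 2632 lower, and the interaction was called in 1586 to 1783 and 873 to 1046. The lists then held 12 to 12 stress regulators, 8 to 10 amino acid synthesis genes, 6 to 7 transporters, 7 to 7 snoRNA host genes, 12 to 12 p53 targets, 6 to 7 BCL2 family genes, 13 to 15 ERK-responsive genes, 15 to 17 NF-κB genes, 9 to 10 metabolic genes, 14 to 17 cholesterol genes, 17 to 17 exocytosis genes, 9 to 12 coagulation genes, 7 to 9 integrins and 5 to 6 markers. The replicate block gave 1537 higher and 2561 lower, and the crossed pairing, chosen after seeing the data, gave 1547 and 2583. Genes given as examples outside the naming rule were not followed through the settings. No gene that the rule names changed sign in the settings run. The medians of 9 of 53 lists did in at least 1 setting, and none of these was above 0.33 in size. With library size alone the medians of endoplasmic reticulum chaperones (-0.01) and secretory identity genes (-0.08) fell below 0.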

Other observations

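Along the chromosomes, 12 runs of at least 5 neighbouring tested genes were called in the same direction, 11 of them lower and 1 higher with IFN-γ. The run called higher holds 6 genes on chromosome 5, from 173056352 to 173616659 (GRCh38), namely CREBRF, BNIP1, NKX2-5, STC2, LINC02995 and BOD1. STC2, a secreted glycoprotein of the stress response, went from 56.7 and 57.1 CPM to 915 and 930 CPM. A run of 6 genes called lower lies on chromosome 22, from 37065436 to 37486393, and holds TMPRSS6, IL2RB, C1QTNF6, CYTH4, ELFN2 and MFNG. No test was made of the number of runs.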
